A study of Mus musculus with 60 samples.

Results

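Otx2, Pou3f1, Fgf5 and Sox4 were followed through every library of the series, as 4 of the 55487 genes in the count tables. The genes were taken by name as factors of formative pluripotency, with earlier results of these data known. The libraries were rRNA-depleted, strand-specific RNA sequencing libraries of E14JU cells, a mouse embryonic stem cell (ESC) line of 129/Ola background, kept in serum with leukemia inhibitory factor (LIF). In both lines used, POLE4 carries a dTAG degron, so that the protein is destroyed when the dTAG compound is added. Cells given DMSO were the controls, named Ctrl for the POLE4-dTAG line and Ctrl MCM2-2A for the POLE4-dTAG line that also carries the histone-binding mutant of MCM2. Cells given dTAG are named dPOLE4 and dPOLE4 MCM2-2A. In the first experiment cells were collected after 24 h of DMSO or dTAG (T0), or moved to retinoic acid (RA) without LIF and collected 12, 24 or 60 h later (T12, T24, T60), giving 16 groups of 3 libraries. A separate experiment of 4 groups of 3 libraries was collected after 96 h of DMSO or dTAG in serum and LIF. All controls therefore carry the tagged Pole4 allele, there is no untagged line, and each line is represented by 1 clone, so that the effect of the MCM2 mutation and other differences between the clones cannot be told apart.

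Formative pluripotency is the stage between the naive state of the early epiblast and the lineage-primed state, at which cells become able to respond to differentiation signals. OTX2 is a homeodomain transcription factor that drives exit from the naive state and is later used in forebrain patterning, and POU3F1 (also called OCT6) is a POU-domain factor of the epiblast and of neural progenitors. SOX4 is an HMG-box factor of the SoxC group that is expressed widely in differentiating progenitors, and FGF5 is a secreted growth factor, the ligand by which the primed epiblast is often recognised. POLE4 and MCM2 both act at the replication fork, where they pass parental histones to the leading and the lagging strand. RA drives ESCs out of pluripotency, towards neural and endodermal fates.

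The members lie on different chromosomes of GRCm38 (mm10). Otx2 (ENSMUSG00000021848) is on the minus strand at chr14:48657677-48673819, Pou3f1 (ENSMUSG00000090125) on the plus strand at chr4:124656807-124660655, Fgf5 (ENSMUSG00000029337) on the plus strand at chr5:98254184-98277030 and Sox4 (ENSMUSG00000076431) on the minus strand at chr13:28948919-28953713. Exons of Otx2 share 154 bases with the opposite-strand transcript Otx2os1 and 168 bases with Gm49154 on the same strand, exons of Pou3f1 share 330 bases with the opposite-strand Gm2164, and exons of Sox4 share 2616 bases with the opposite-strand Gm26735, which has no row in the count tables. The counts of Otx2os1 were at most 18 in a T0 or 96 h library, against at least 178 for Otx2, and those of Gm49154 at most 3. Strand cannot separate Otx2 from Gm49154. Whether the counting used strand is not given in the sources used here, so reads of Sox4 and of its antisense partner cannot be told apart.

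The RefSeq sequence before the start site is shown for the members that the promoter table holds, because the data ask whether these genes move together. Each run is the 230 bases from 250 to 21 bases before the RefSeq start (GRCm38.p6), written 5′ to 3′ on the gene's strand, and capitals mark the only match to a searched motif. The windows are chr14:48667665-48667894 for Otx2, whose RefSeq start in that table lies inside the longer annotated gene, chr13:28953720-28953949 for Sox4 and chr5:98253934-98254163 for Fgf5.
Otx2: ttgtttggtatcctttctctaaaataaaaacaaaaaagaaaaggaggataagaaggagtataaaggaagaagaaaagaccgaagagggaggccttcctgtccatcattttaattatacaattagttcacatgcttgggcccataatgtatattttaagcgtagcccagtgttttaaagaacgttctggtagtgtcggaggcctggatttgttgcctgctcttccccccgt
Sox4: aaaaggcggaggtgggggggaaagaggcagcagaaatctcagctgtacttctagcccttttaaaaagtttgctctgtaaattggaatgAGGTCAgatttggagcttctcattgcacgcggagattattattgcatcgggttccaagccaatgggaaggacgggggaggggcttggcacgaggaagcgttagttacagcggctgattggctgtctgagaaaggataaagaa
Fgf5: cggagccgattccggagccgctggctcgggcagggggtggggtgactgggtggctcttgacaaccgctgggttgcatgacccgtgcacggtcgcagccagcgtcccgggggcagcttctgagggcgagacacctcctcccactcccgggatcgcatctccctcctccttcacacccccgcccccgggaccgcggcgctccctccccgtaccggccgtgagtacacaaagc
Both strands were searched for AGGTCA (half-site of the RA receptor), CTTTGA (core of LEF/TCF sites), ATGCAAAT (the octamer of POU factors), TAATCC (core of OTX sites) and AACAAT (core of SOX sites). The match was 1 AGGTCA, 162 bases before the Sox4 start, a motif that 13.0% of 32851 windows of this length held. The other motifs were held by 13.0%, 1.53%, 5.88% and 8.98% of the windows, in the order given. The Otx2 window had 40.0% G and C, that of Sox4 49.1% and that of Fgf5 70.9%.

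The library totals ran from 10461077 to 46609151 counts in the RA experiment (median 19752626) and from 7126100 to 23598266 in the 96 h experiment. Levels are given as CPM, counts scaled to the library's total after TMM normalization, and a member's precision follows its counts. The sums of marker lists are CPM of the raw library total, without the TMM factors, which ran from 0.911 to 1.07 in the RA experiment. Sox4 had 315 to 9858 counts in a library, Pou3f1 41 to 1045 and Otx2 1 to 1333, whereas Fgf5 had only 5 to 84, so that a change of Fgf5 is measured far less well. All 6 ESC markers looked at (Pou5f1, Sox2, Nanog, Zfp42, Sall4, Lin28a) were above 1 CPM in every group, and their summed level in Ctrl had a median of 3093 CPM at T0 and 816 at T60. The summed level of 8 endoderm markers had a median of 235 CPM at T0 and 2465 at T60, and that of 8 neural markers 205 and 318 CPM. In each group 0 markers of these lists were at 0 in every library. Of the 8 neural markers, 4 had a mean of at least 1 CPM in Ctrl at T0 and 5 at T60. Pole4 mRNA did not pass the test on dTAG in either line at T0 (log2 fold change -0.01 and -0.06), and an mRNA level does not check a degron that acts on protein. Without dTAG, Pole4 mRNA was lower in Ctrl MCM2-2A than in Ctrl at every time. The log2 fold changes were -0.68, -0.75, -0.61, -0.22 and -0.95 at T0, T12, T24, T60 and 96 h. The T60 value had an adjusted p of 0.0495 by edgeR. Mcm2 mRNA differed by -0.70 at T0 and -0.81 at 96 h. The part of these differences in comparisons between the lines was not tested. Replicate 1 had the highest level of both Pou3f1 and Sox4 in 4 of 4 groups at T0.

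During RA differentiation the members did not move as 1 group: Otx2 fell from the first 12 h in all 4 states, Pou3f1 was not DE in Ctrl until T24 and then fell, Fgf5 fell from T0 to T12 in Ctrl and dPOLE4, and Sox4 rose from T24 to T60 in all 4 states. DE is used below for an adjusted p under 0.01 together with a log2 fold change above 0.58 or below -0.58. In bulk RNA, fewer cells of a type and less RNA in each cell cannot be told apart. The labels name 3 samples a group and no separate animals or donors, so that the p-values of edgeR's quasi-likelihood test, adjusted by Benjamini-Hochberg over all features tested, measure only the spread between these samples. The number of members DE at the 3 steps was 2, 2 and 3 of 4 in Ctrl, 2, 0 and 3 in dPOLE4, 2, 1 and 3 in Ctrl MCM2-2A and 1, 2 and 3 in dPOLE4 MCM2-2A. At the step with 0 by edgeR, dPOLE4 from T12 to T24, DESeq2 also called 0 and 2 members had an unadjusted p under 0.05. Over all features tested, 11.3%, 6.97% and 35.7% were DE at these steps in Ctrl, 11.7%, 6.30% and 32.0% in dPOLE4, 8.65%, 8.83% and 31.6% in Ctrl MCM2-2A and 7.79%, 7.75% and 25.3% in dPOLE4 MCM2-2A.

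Otx2 was at 11.8, 17.2 and 15.3 CPM in the Ctrl libraries at T0, at 5.26, 6.23 and 4.95 at T12, at 2.66, 2.84 and 3.37 at T24 and at 0.304, 0.183 and 0.192 at T60. The groups did not overlap at any step, and the last values rest on 5, 2 and 2 counts. Over all features, 22.5%, 20.6% and 35.2% were lower without overlap at these steps. In Ctrl, Otx2 was DE at each step, with log2 fold changes of -1.43 ± 0.15 (SE; adjusted p = 1.64e-05), -0.90 ± 0.15 (adjusted p = 0.00158) and -3.58 ± 0.34 (adjusted p = 2.64e-07). In dPOLE4 it went from 9.11, 13.3 and 12.7 CPM at T0 over 4.23, 3.66 and 3.74 at T12 and 2.46, 2.59 and 1.62 at T24 to 0.152, 0.311 and 0.0586 at T60. The order of the times was thus the same as in Ctrl, at slightly lower levels. In Ctrl MCM2-2A it started at 39.4, 38.5 and 32.5 CPM and reached 0.901, 0.324 and 0.358, with steps of -1.54, -1.14 and -3.42. In dPOLE4 MCM2-2A it went from 21.1, 20.8 and 17.3 CPM at T0 to 2.18, 2.55 and 1.45 at T24, and the step from T12 to T24 was -1.55 ± 0.19. Otx2 was DE lower at 11 of the 12 steps over the 4 cell states, and the step of dPOLE4 from T12 to T24 was -0.75 with an adjusted p of 0.0139.

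Pou3f1 was at 34.5, 31.9 and 32.8 CPM in Ctrl at T0 and at 33.0, 38.0 and 40.0 at T24, groups that overlap. It then fell to 4.69, 4.2 and 3.94 CPM at T60, a change of -3.08 ± 0.12 on the log2 scale (adjusted p = 1.31e-11). In dPOLE4 the course was alike, with 43.1, 30.2 and 29.3 CPM at T0, 29.2, 36.3 and 30.5 at T24 and 3.13, 4.62 and 3.22 at T60. In Ctrl MCM2-2A it went from 38.5, 27.8 and 24.6 CPM at T0 over 22.9, 24.2 and 26.1 at T12 and 16.9, 19.9 and 16.1 at T24 to 3.32, 2.78 and 3.22 at T60. Its first 2 steps there were -0.28 ± 0.14 (adjusted p = 0.169) and -0.45 ± 0.10 (adjusted p = 0.00298), neither of them DE. In dPOLE4 MCM2-2A it was at 18.2, 19.2 and 18.0 CPM at T12 and already at 8.70, 10.9 and 8.31 at T24, a DE step of -1.01 ± 0.11 (adjusted p = 5.54e-05), and ended at 5.26, 5.05 and 4.40. The last step was DE lower in all 4 states, by -3.08 in dPOLE4, -2.52 in Ctrl MCM2-2A and -0.91 in dPOLE4 MCM2-2A. No change of Pou3f1 from T0 to T12 was DE in any state.

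Sox4 was at 71.0, 58.8 and 58.0 CPM in Ctrl at T0, at 88.7, 102 and 89.9 at T12, at 135, 141 and 149 at T24 and at 470, 426 and 438 at T60. Each group lay above the one before. Among all features tested, 4271 of 17673, 3925 of 18679 and 6385 of 18290 were higher without overlap at these steps. The step from T24 to T60 was DE in all 4 states, with log2 fold changes of 1.66 ± 0.06 in Ctrl, 1.74 ± 0.07 in dPOLE4, 2.04 ± 0.05 in Ctrl MCM2-2A and 1.80 ± 0.09 in dPOLE4 MCM2-2A. The earlier steps were smaller (0.34 to 0.64), and of these 8 only Ctrl from T12 to T24 (0.60) and Ctrl MCM2-2A from T0 to T12 (0.64) were DE. The former call was lost without Ctrl T12 replicate 1 or 3 or Ctrl T24 replicate 3, at a change down to 0.56, and the latter without Ctrl MCM2-2A T0 replicate 3, at 0.53. At T60 Sox4 was at 385, 398 and 431 CPM in dPOLE4 and at 348, 319 and 329 in Ctrl MCM2-2A. All values of Sox4 in dPOLE4 MCM2-2A at T60 (243, 204 and 233 CPM) lay below all values of Ctrl at that time, as for 26.7% of all features.

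Fgf5 was at 2.78, 3.31 and 4.25 CPM in Ctrl at T0, from 49 to 84 counts, and at 0.882, 1.11 and 0.911 at T12, a DE drop of -1.85 ± 0.23 (adjusted p = 8.29e-05). In dPOLE4 the same step was -1.40 ± 0.33 and DE (adjusted p = 0.00447), although the T12 libraries ranged from 0.379 to 1.12 CPM. That call was lost without dPOLE4 T0 replicate 2 or 3 or dPOLE4 T12 replicate 1 or 3, at an adjusted p of up to 0.0259. In Ctrl MCM2-2A and dPOLE4 MCM2-2A, which started lower, the step was -0.51 ± 0.25 and -0.91 ± 0.29 and not DE. No later step of Fgf5 was DE in any state. In Ctrl the endoderm marker sum had medians of 235, 164, 282 and 2465 CPM at T0, T12, T24 and T60. The neural sum had medians of 205, 145, 155 and 318 CPM. Both were thus lower at T12 than at T0, and their part in the members' changes was not tested.

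**Figure D1:**
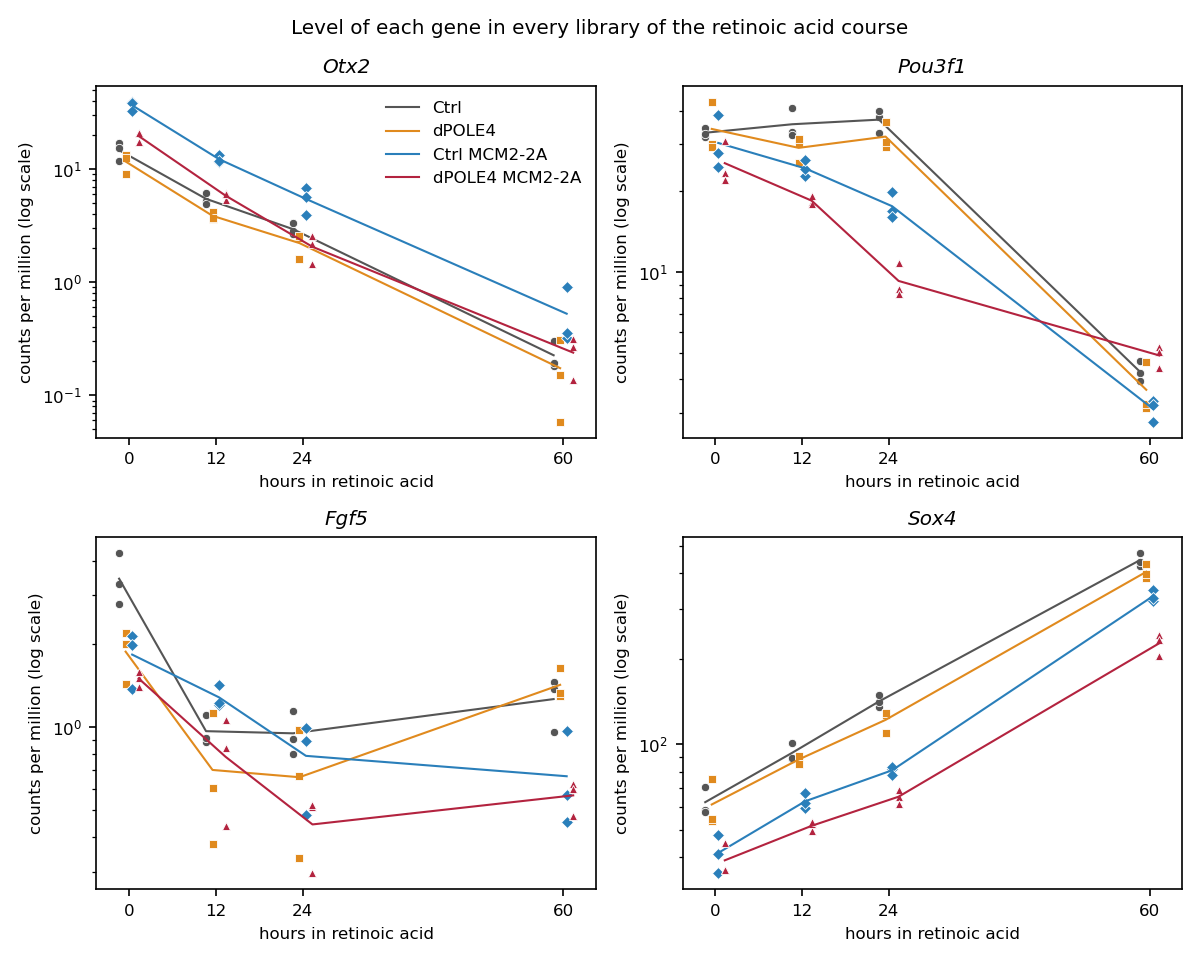
Level of each gene (CPM, log axis) against hours in RA in the 48 libraries of the first experiment, 1 symbol a library and lines through the group means. Otx2 fell in all 4 states, Pou3f1 in Ctrl and dPOLE4 fell after T24, and Sox4 rose to 204 to 470 CPM at T60.

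The first comparison asks whether loss of POLE4 alone changes the members. By edgeR, 0 of 4 members were DE between dPOLE4 and Ctrl at T0, T12, T24 and 96 h, and 0 of 3 at T60, where Otx2 did not pass the filter on low counts. Over all features 0%, 0%, 0%, 0.193% and 0% were DE at T0, T12, T24, T60 and 96 h. At an unadjusted p under 0.05 there were 1, 2, 1, 0 and 3 members, in the same order, and DESeq2 called 0 members at each of these times. Otx2 had log2 fold changes of -0.33 ± 0.15, -0.50 ± 0.15, -0.36 ± 0.20 and -0.31 ± 0.10 at T0, T12, T24 and 96 h, none of them DE. Otx2 in dPOLE4 at T12 was at 4.23, 3.66 and 3.74 CPM, all below the 3 Ctrl libraries, with an adjusted p of 0.618. For Pou3f1 and Sox4 the fit gave log2 fold changes of 0.03 ± 0.12 and -0.04 ± 0.12 at T0 and -0.19 ± 0.19 and -0.12 ± 0.06 at T60. Fgf5 at T0 was at 1.43, 2.01 and 2.19 CPM in dPOLE4, again all below Ctrl, with a log2 fold change of -0.87 ± 0.22 and an adjusted p of 0.336. Over all features, 7.82% were lower in dPOLE4 without overlap at T0 and 7.01% at T12.

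After 96 h, Pou3f1 was at 16.2, 23.9 and 18.6 CPM in Ctrl and at 8.29, 11.8 and 14.5 in dPOLE4. The groups did not overlap, and the log2 fold change was -0.75 ± 0.19 (adjusted p = 0.161). Over all features, 9.83% were lower in dPOLE4 without overlap. Libraries of the same replicate number deviated together in this comparison, and with the replicate number as a block the change of Pou3f1 was -0.76 ± 0.11 and DE (adjusted p = 5.16e-05), where 0.808% of all features were DE. The blocked fit left the other 3 members outside the call, with Otx2 at an adjusted p of 0.0123. Fgf5 was at 1.00, 0.612 and 1.17 CPM in Ctrl and 0.510, 0.337 and 0.483 in dPOLE4, values of 7 to 27 counts, and its change of -1.09 ± 0.37 was not DE. Sox4 differed by -0.21 ± 0.10.

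In the MCM2-2A background loss of POLE4 lowered Otx2 at each of the first 3 times and Pou3f1 at T24 and 96 h. At T0 Otx2 was at 39.4, 38.5 and 32.5 CPM in Ctrl MCM2-2A and at 21.1, 20.8 and 17.3 in dPOLE4 MCM2-2A. The fold change was -0.90 ± 0.10 on the log2 scale (adjusted p = 0.00677), and Otx2 was the only member called, 1 of 4, against 0.0715% of all features. The study had already named Otx2 as lowered after 24 h of POLE4 loss in this line. The counts of members called on POLE4 loss in this line are therefore no independent evidence. With 1 library left out at a time the change stayed between -0.98 and -0.80, but the call was kept only without dPOLE4 MCM2-2A replicate 1 and lost in the other 5 of 6 cases, at an adjusted p of up to 0.0704. At T12 Otx2 was at 11.6, 13.5 and 11.8 CPM against 5.33, 6.14 and 6.07, a change of -1.07 ± 0.12 (adjusted p = 0.000905), and 1 of 4 members was DE against 0.404% of features. At T24 it was at 6.77, 5.71 and 3.92 CPM against 2.18, 2.55 and 1.45, a change of -1.47 ± 0.23 (adjusted p = 0.00178). Without Ctrl MCM2-2A replicate 1 or replicate 2 at T24 the call of Otx2 was lost, at changes down to -1.24 and an adjusted p of up to 0.0182. The groups did not overlap at any of these times. Of all features tested, 1855 of 18171, 1985 of 18077 and 2579 of 18441 were lower without overlap at T0, T12 and T24. At T60 the counts of Otx2 were 19, 10 and 7 in Ctrl MCM2-2A and 6, 5 and 3 in dPOLE4 MCM2-2A, too low for the filter. At 96 h Otx2 was at 31.4, 28.7 and 27.6 CPM against 19.6, 16.6 and 22.7, a change of -0.57 ± 0.13 that was not DE (adjusted p = 0.0813). With the replicate block it was -0.58 ± 0.09 at an adjusted p of 7.13e-05 and stayed just inside the fold change cutoff.

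Pou3f1 in the MCM2-2A background was not DE at T0 (-0.24 ± 0.16) or T12 (-0.40 ± 0.08, adjusted p = 0.0222). At T24 it was at 16.9, 19.9 and 16.1 CPM in Ctrl MCM2-2A and 8.70, 10.9 and 8.31 in dPOLE4 MCM2-2A, a DE change of -0.95 ± 0.12 (adjusted p = 0.000469). With Otx2 this made 2 of 4 members DE at T24, where 1.02% of all features were DE. At T60 the order was the other way round: Pou3f1 was at 3.32, 2.78 and 3.22 CPM in Ctrl MCM2-2A and at 5.26, 5.05 and 4.40 in dPOLE4 MCM2-2A, 0.66 ± 0.16 higher with an adjusted p of 0.0215, so not DE. At 96 h it was at 31.4, 39.0 and 33.5 CPM against 20.3, 21.2 and 20.1, a DE change of -0.75 ± 0.11 (adjusted p = 0.00958) and the only one among 4 members, against 0.304% of features. With 1 library left out at a time this call was kept only without Ctrl MCM2-2A replicate 1 and lost in the other 5 of 6 cases, at changes of -0.81 to -0.67 and an adjusted p of up to 0.0767. With the replicate block, which same-numbered libraries of this comparison call for, its adjusted p was 1.33e-07 and 1.76% of features were DE.

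Fgf5 was not DE on loss of POLE4 in the MCM2-2A background at any time, with changes of -0.30 ± 0.23 at T0, -0.69 ± 0.32 at T12, -0.93 ± 0.39 at T24 and -0.17 ± 0.37 at T60. At 96 h it was at 2.92, 3.05 and 2.83 CPM against 1.32, 1.46 and 1.44, which do not overlap, and its change of -1.05 ± 0.21 had an adjusted p of 0.0531. Over all features, 8.02% were lower without overlap there. With the replicate block the change of Fgf5 was -1.05 ± 0.25 and DE (adjusted p = 0.00535). Sox4 was not DE either, with changes of -0.07 ± 0.12 at T0, -0.28 ± 0.06 at T12, -0.31 ± 0.06 at T24 and -0.27 ± 0.09 at 96 h. At T60 it was at 348, 319 and 329 CPM in Ctrl MCM2-2A and 243, 204 and 233 in dPOLE4 MCM2-2A, a change of -0.55 ± 0.08 (adjusted p = 0.00157) that passed the p threshold but not the fold change cutoff. At T60 0 of 3 members were therefore DE by edgeR and 0 by DESeq2, with 2 at an unadjusted p under 0.05, against 2.25% of features. The endoderm marker sum differed in the same comparison, 2931 to 3256 CPM in Ctrl MCM2-2A and 2333 to 2620 in dPOLE4 MCM2-2A, as did the neural sum, 229 to 259 and 179 to 198 CPM. Their part in the result was not tested.

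**Figure D2:**
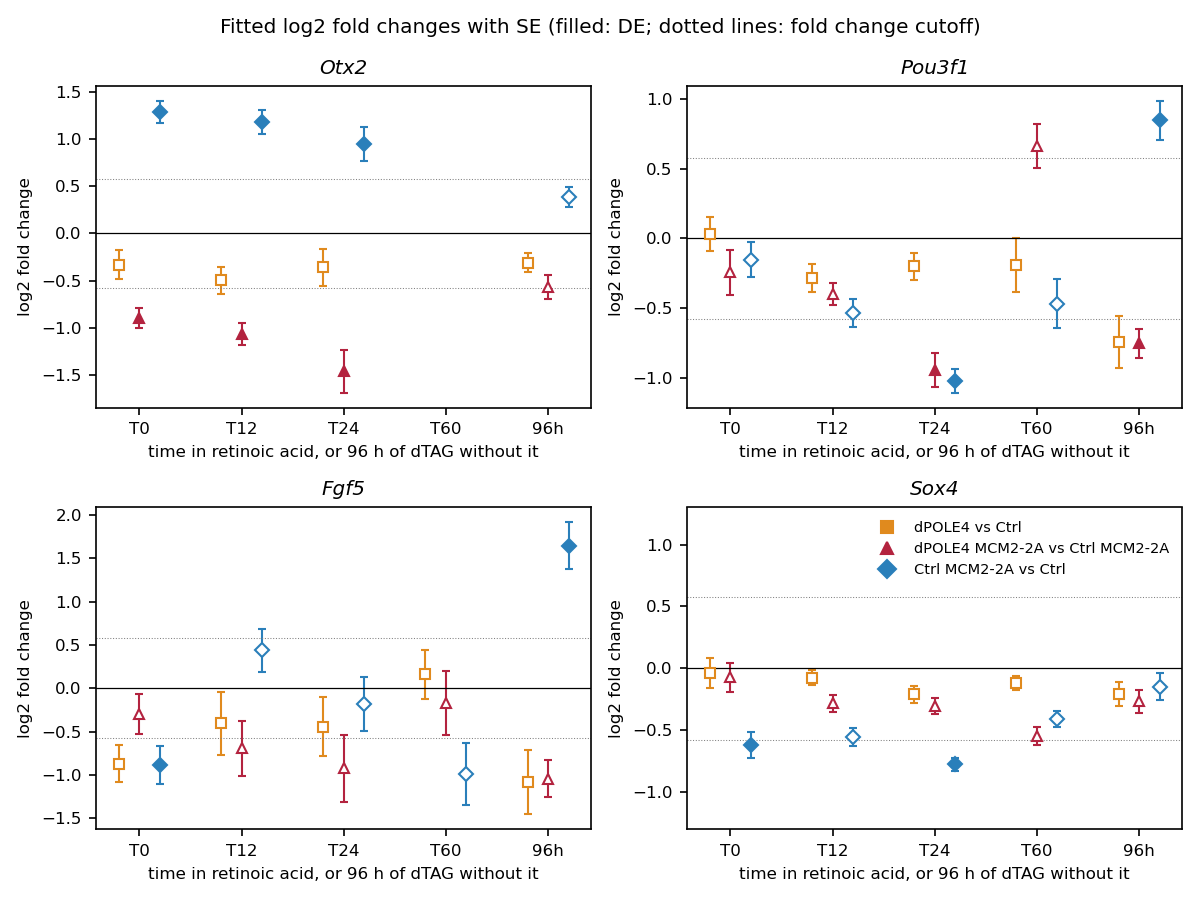
Fitted log2 fold changes with their SE at each time, for dPOLE4 vs Ctrl (squares), dPOLE4 MCM2-2A vs Ctrl MCM2-2A (triangles) and Ctrl MCM2-2A vs Ctrl (diamonds). Filled symbols are DE and dotted lines mark the fold change cutoff. Otx2 has filled triangles from T0 to T24, at -0.90 to -1.47, and no filled square.

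Whether the POLE4 effect differs between the backgrounds was tested as an interaction, and 0 members were DE at any time. Otx2 had differences of -0.56 ± 0.20, -0.57 ± 0.18 and -1.12 ± 0.33 at T0, T12 and T24, with unadjusted p of 0.0144, 0.0059 and 0.0034 and adjusted p of 0.926, 0.381 and 0.265. Pou3f1 had -0.76 ± 0.16 at T24 (unadjusted p = 0.000245, adjusted p = 0.111) and 0.87 ± 0.25 at T60 (adjusted p = 0.146). For Sox4 the largest difference was -0.42 ± 0.10 at T60 (adjusted p = 0.0674), and Fgf5 had 0.58 ± 0.32 at T0 (adjusted p = 0.938). At an unadjusted p under 0.05 there were 1, 2, 2, 2 and 0 members at T0, T12, T24, T60 and 96 h, and DESeq2 called 0 at each. Over all features 0.00526%, 0.0159%, 0.0351%, 0.100% and 0% were DE. A call of Otx2 in the MCM2-2A background and none in the Ctrl background is therefore not shown to be a difference between them.

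The members stood at different levels in the MCM2-2A line before any loss of POLE4. In Ctrl MCM2-2A against Ctrl, Otx2 was higher by 1.29 ± 0.12 at T0 (adjusted p = 4.82e-06), 1.18 ± 0.13 at T12 (adjusted p = 5.46e-05) and 0.95 ± 0.18 at T24 (adjusted p = 0.000406), all DE and without overlap. Over all features, 28.2%, 22.7% and 25.7% were higher without overlap at these times. At 96 h the Ctrl MCM2-2A libraries were at 31.4, 28.7 and 27.6 CPM and those of Ctrl at 21.1, 22.5 and 23.9, a difference of 0.39 ± 0.11 that was not DE (adjusted p = 0.0123). Sox4 was lower in Ctrl MCM2-2A, at 48.0, 41.2 and 35.2 CPM against 71.0, 58.8 and 58.0 at T0 (-0.62 ± 0.10, DE) and at 81.8, 83.5 and 77.9 CPM against 135, 141 and 149 at T24 (-0.78 ± 0.05, adjusted p = 3.20e-09). Without Ctrl T0 replicate 1 or Ctrl MCM2-2A T0 replicate 3 the T0 difference of Sox4 no longer reached the fold change cutoff and went down to -0.48. At T12 and T60 Sox4 differed by -0.56 ± 0.07 and -0.41 ± 0.06, with adjusted p under the threshold (0.000196 and 9.07e-05) and the change under the cutoff. At 96 h its groups overlapped (-0.15 ± 0.11).

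Pou3f1 was not DE between the lines at T0 (-0.15 ± 0.13), was lower in Ctrl MCM2-2A at T24 (-1.02 ± 0.09, adjusted p = 6.42e-08, DE) and was higher in it at 96 h, at 31.4, 39.0 and 33.5 CPM against 16.2, 23.9 and 18.6 (0.85 ± 0.14, adjusted p = 0.000469, DE). Fgf5 was lower in Ctrl MCM2-2A at T0, at 2.14, 1.38 and 1.98 CPM against 2.78, 3.31 and 4.25 (-0.89 ± 0.22, adjusted p = 0.00583, DE), a call that was lost without replicate 2 or 3 of either group, at an adjusted p of up to 0.041. At 96 h it was higher in it, at 2.92, 3.05 and 2.83 CPM against 1.00, 0.612 and 1.17 (1.65 ± 0.27, adjusted p = 0.000444, DE). In all, 3 of 4 members were DE between the lines at T0, 1 of 4 at T12, 3 of 4 at T24, 0 of 3 at T60 and 2 of 4 at 96 h. Neither Fgf5 (-0.99 ± 0.35, adjusted p = 0.0342) nor Pou3f1 (-0.47 ± 0.18) was DE at T60, where DESeq2 called 0 members as well and all 3 had an unadjusted p under 0.05. Over all features 18.9%, 14.5%, 17.3%, 16.9% and 15.7% were DE. The Ctrl MCM2-2A libraries stand in this comparison and, with the opposite sign, in that of POLE4 loss in the MCM2-2A background, so the opposite directions of Otx2 in both are not independent. The summed level of 6 mesoderm markers also differed between the lines at T0, a median of 66.1 CPM in Ctrl and 18.9 in Ctrl MCM2-2A. At 96 h the medians were 22.5 CPM in Ctrl and 28.5 in Ctrl MCM2-2A. The part of these markers in the differences between the lines was not tested.

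Otx2 lies on a stretch of chromosome 14 over which the whole neighbourhood was higher in the MCM2-2A line. Of the 10 tested protein-coding genes before Otx2, by coordinate, and within 1.42 Mb of it, 10 were higher in Ctrl MCM2-2A than in Ctrl at T0 and 9 were DE, with a median log2 fold change of 0.96 (0.30 to 1.79). Of the 10 after it, within 2.27 Mb, 10 were higher too and 9 were DE, with a median of 0.98 (0.42 to 1.22). The next genes, chosen after the values were seen, differed by side. The next 10 before Otx2 had a median of -0.20, with Gch1 at 1.98, 1.5 Mb before Otx2, and Samd4 at -1.37, 1.77 Mb before it. The next 10 after Otx2 had a median of 1.21 (0.66 to 2.15). Otx2 is thus not the first gene of the raised stretch, which reached at least 1.42 Mb before it. The median over all 487 tested protein-coding genes of chromosome 14 was 0.26, and the medians of the 20 genes around Pou3f1, Fgf5 and Sox4 were -0.03, -0.12 and -0.22. Otx2 at T0 (1.29 ± 0.12) was above both medians of its neighbours, inside the range of the 10 before it and above that of the 10 after it.

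The neighbours did not follow Otx2 when POLE4 was lost in that line. At T0 the 10 genes before Otx2 had a median change of -0.03 (-0.29 to 0.35) and the 10 after it -0.04 (-0.31 to 0.05), and 0 of the 20 were DE by edgeR (4 at an unadjusted p under 0.05), whereas Otx2 changed by -0.90. At T24 the medians were 0.03 and -0.08, with 0 of 20 DE lower and 1 DE higher, and Otx2 changed by -1.47. At 96 h the neighbours' difference between the lines was still at medians of 0.94 and 0.70, while Otx2 was at 0.39.

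**Figure D3:**
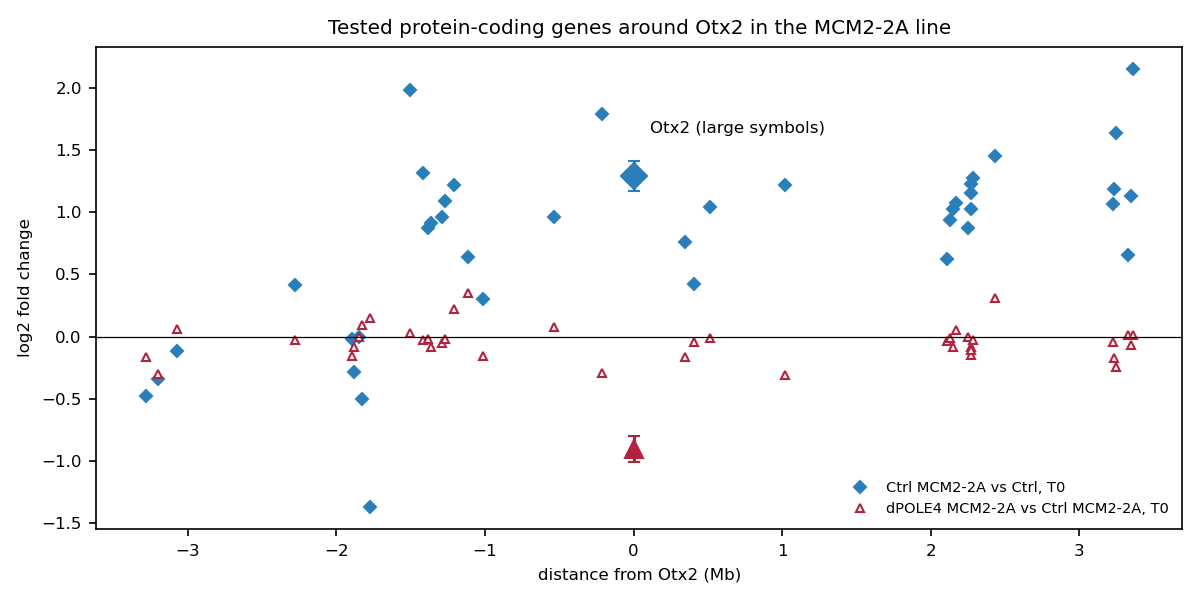
Log2 fold change at T0 of the tested protein-coding genes up to 20 places on either side of Otx2, against the distance of their starts from that of Otx2 (Mb). Diamonds compare Ctrl MCM2-2A with Ctrl and open triangles dPOLE4 MCM2-2A with Ctrl MCM2-2A. Large symbols with SE are Otx2. The diamonds sit above 0 from 1.42 Mb before Otx2 onwards and the triangles near 0, with Otx2 at -0.90.

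Against Ctrl, the double disruption gave DE lower Sox4 at the 4 times of the RA experiment, Pou3f1 at T12 and T24 and Fgf5 at T0. Sox4 was DE lower in dPOLE4 MCM2-2A at T0, T12, T24 and T60, by -0.68 ± 0.10, -0.84 ± 0.07, -1.09 ± 0.06 and -0.95 ± 0.08, and by -0.41 ± 0.10 at 96 h without reaching the cutoff. Without Ctrl T0 replicate 1 its change at T0 was -0.58 and just inside the cutoff. Pou3f1 was DE lower at T12 (-0.93 ± 0.10) and at T24, where Ctrl was at 33.0, 38.0 and 40.0 CPM and dPOLE4 MCM2-2A at 8.70, 10.9 and 8.31 (-1.98 ± 0.11, adjusted p = 5.51e-08), and at T60 it differed by 0.20 ± 0.18. Fgf5 was DE lower at T0 (-1.18 ± 0.21, adjusted p = 0.00075), and it was at -1.12 ± 0.33 at T24 and -1.15 ± 0.33 at T60, with adjusted p of 0.0147 and 0.0123. Otx2 was not DE at any tested time, with 0.41 ± 0.13 at T0, 0.11 ± 0.13 at T12, -0.52 ± 0.22 at T24 and -0.18 ± 0.12 at 96 h. The members DE were 2, 2, 2, 1 and 0 at T0, T12, T24, T60 and 96 h, against 22.0%, 18.0%, 19.6%, 21.8% and 20.6% of features. At 96 h DESeq2 called 0 members too, and 1 had an unadjusted p under 0.05. These fold changes use the Ctrl libraries of the comparisons above and are not independent of them.

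**Figure D4:**
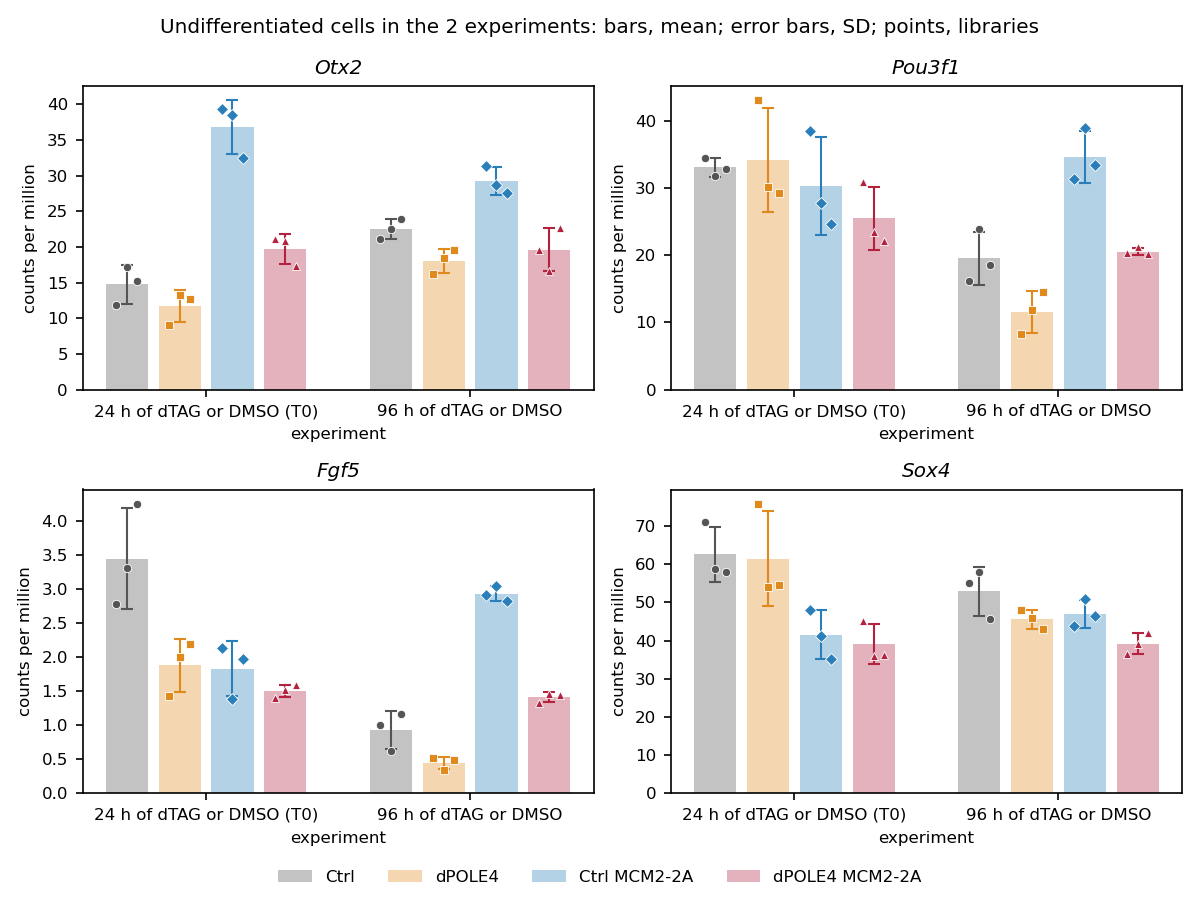
Level of each gene (CPM) in undifferentiated cells after 24 h (T0) and after 96 h of DMSO or dTAG, bars for means, error bars for SD, points for the 3 libraries of a group, each experiment normalized separately. Fgf5 is highest in Ctrl at T0 (2.78 to 4.25 CPM) and highest in Ctrl MCM2-2A at 96 h (2.83 to 3.05 CPM).

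The difference between the lines changed between the experiments. As a test chosen after these values were seen, the difference of Ctrl MCM2-2A from Ctrl at 96 h was compared with that at T0 in 1 fit. The change of the difference was -0.94 ± 0.16 for Otx2 (adjusted p = 0.00241), 0.97 ± 0.21 for Pou3f1 (adjusted p = 0.00982) and 2.51 ± 0.35 for Fgf5 (adjusted p = 0.000293), and 3 of 4 members were DE against 1.90% of all features. Sox4 had 0.44 ± 0.16 (adjusted p = 0.141). In the same test 3 of 5 mesoderm markers, 2 of 16 other formative genes and 0 of 12 naive genes were DE higher. In each of these lists 0 were DE lower. With 1 of the 12 libraries left out at a time, the call of Fgf5 was kept in all cases. That of Otx2 was lost without Ctrl MCM2-2A T0 replicate 2, Ctrl 96h replicate 3 or Ctrl MCM2-2A 96h replicate 3 (adjusted p of up to 0.0131). That of Pou3f1 was lost in 9 of 12 cases (adjusted p of up to 0.0328) and kept only without Ctrl MCM2-2A T0 replicate 1, Ctrl 96h replicate 2 or Ctrl MCM2-2A 96h replicate 1. The experiments differ in the length of DMSO treatment and were deposited as separate count tables, whose headers name the 96 h libraries as another batch. The length of treatment and the batch cannot be told apart. The CPM of the experiments were normalized separately and are set side by side as values only. Fgf5 in Ctrl, a group with no loss of POLE4, was at a mean of 3.45 ± 0.75 CPM (SD, n = 3) at T0 and 0.927 ± 0.284 at 96 h, and Pou3f1 in Ctrl at 33.1 ± 1.35 and 19.6 ± 3.92 CPM.

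The response to RA was compared between the lines in the same way, as the difference of each step in Ctrl MCM2-2A from that in Ctrl. By the call, 0 of 4 members were DE at each of the 3 steps, against 0.303%, 0.189% and 8.02% of features, with 1, 2 and 2 members at an unadjusted p under 0.05 and 0 called by DESeq2. The rise of Sox4 from T24 to T60 was steeper in Ctrl MCM2-2A by 0.36 ± 0.08 (adjusted p = 0.00207), under the fold change cutoff, and that step of Pou3f1 differed by 0.54 ± 0.18 (adjusted p = 0.0382). The earlier steps of Pou3f1 differed by -0.38 ± 0.18 and -0.49 ± 0.15 (adjusted p = 0.437 and 0.143). The step of Fgf5 from T0 to T12 differed by 1.34 ± 0.34 (adjusted p = 0.081). Otx2 had differences of -0.10 ± 0.19, -0.23 ± 0.23 and 0.14 ± 0.58.

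Ordered by mean CPM over the 16 groups, Otx2 was highest in Ctrl MCM2-2A at T0 (36.8 CPM), then in dPOLE4 MCM2-2A at T0 (19.7) and Ctrl at T0 (14.8), and lowest in dPOLE4 at T60 (0.174). Of the 15 pairs of neighbours in that order, 8 had overlapping libraries. Pou3f1 ranged only from 37.0 CPM in Ctrl at T24 to 3.11 in Ctrl MCM2-2A at T60, and the first 9 groups of its order, which hold all 4 states at T0, overlapped each with the next. For Sox4 the 4 groups at T60 stood first, in the order Ctrl, dPOLE4, Ctrl MCM2-2A and dPOLE4 MCM2-2A (445, 405, 332 and 227 CPM), and only the first pair of these overlapped. Fgf5 was highest in Ctrl at T0 (3.45 CPM) without overlap, and its other 14 pairs of neighbours overlapped. The highest group mean was 11.9 times the lowest for Pou3f1, 11.4 times for Sox4 and 7.74 times for Fgf5. At 96 h the orders were Ctrl MCM2-2A, Ctrl, dPOLE4 MCM2-2A and dPOLE4 for Otx2, and Ctrl MCM2-2A first and dPOLE4 last for Pou3f1 and Fgf5. Per kilobase of exon, the members at T0 in Ctrl stood at 13.1 CPM per kb for Sox4, 8.59 for Pou3f1, 3.50 for Otx2 and 1.38 for Fgf5.

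Over the 16 group means of log2 CPM the members were not alike. Otx2 and Sox4 had Pearson's r of -0.93, Otx2 and Pou3f1 0.85, Pou3f1 and Sox4 -0.78, Otx2 and Fgf5 0.47, Pou3f1 and Fgf5 0.31, and Fgf5 and Sox4 -0.24. These are descriptions over groups that share a time course and are not independent points. Among 13880 genes the closest to Otx2 were Eif3b (0.99), a translation initiation factor subunit, Utp14a (0.99) and Pus7 (0.99). For Pou3f1 they were Thumpd1 (0.98), Zc3h15 (0.98) and Ltv1 (0.98), for Sox4 Plekho1 (0.99), Limd1 (0.99) and Rps6ka3 (0.99), and for Fgf5 Xrn2, Enah and Zfp36l2 (0.90, 0.89 and 0.87). By Spearman's rho the 3 nearest genes held 2 of these for Fgf5 and 0 for each other member, so the names depend on the measure.

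Of 17 other genes of formative and lineage-primed pluripotency, a list that shares genes with those the study named from these samples and is no independent evidence of a direction, 16 were tested in most comparisons. On loss of POLE4 in the Ctrl background 0 were DE at T0, T12, T24, T60 and 96 h by edgeR, with 5, 8, 6, 3 and 5 at an unadjusted p under 0.05. In the MCM2-2A background 2 were DE lower at T0, 3 at T12, 6 at T24, 1 at T60 and 2 at 96 h, against 0.0495%, 0.188%, 0.504%, 1.19% and 0.109% of all features, and 1, Krt18, was DE higher at T24 (0.60), against 0.515%. The same comparison took Otx2 at T0 and T12 and Otx2 with Pou3f1 at T24. Lef1, a nuclear effector of Wnt signalling, fell by 1.43, 1.78, 1.35 and 1.38 on the log2 scale at T0, T12, T24 and 96 h, and Zic2, a zinc-finger factor, fell by 0.77, 1.13 and 1.13 at T0, T12 and T24. The median of the list was -0.21 at T0, -0.25 at T12, -0.37 at T24, 0.01 at T60 and -0.15 at 96 h, against medians of all features within 0.01 of 0. Of 12 naive pluripotency genes in the same comparison, 0 were DE at T0, T12, T24 and 96 h (3, 6, 7 and 3 at an unadjusted p under 0.05) and 2 were DE higher at T60, against 1.07% of all features, where the list's median was 0.54.

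Between the lines at T0, 5 of 16 other formative genes were DE higher in Ctrl MCM2-2A and 1 was DE lower, against 9.83% and 9.06% of all features. Dnmt3a, a DNA methyltransferase, was higher by 1.48, Sall2 by 0.91 and Tcf15 by 0.86, and Krt18 lower by -1.34. Otx2, which lies on the raised stretch of chromosome 14, stood with the higher genes, and Fgf5 and Sox4 with the lower. Whether others of the higher genes lie on or beside that stretch was not tested. Relatives of the members are given for comparison. Sox11, of the same SoxC group as Sox4, was lower in Ctrl MCM2-2A at T0 by -1.69 and rose from T24 to T60 in Ctrl by 1.41, and Sox12 stayed under the fold change cutoff at that step (0.56). Fgf4 fell at each RA step in Ctrl (-0.97, -1.50 and -4.09), and Fgf8 and Fgf15 were DE in opposite directions between the lines at T0 (-3.11 and 1.38). Pou3f3 rose in Ctrl from T24 to T60 by 1.87 while Pou3f1 fell by 3.08.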

How the data were processed

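The authors trimmed reads with cutadapt 4.2, aligned them with STAR to mm10 keeping multimapping reads, and counted them with TEcount over GENCODE genes and repeat subfamilies. The deposited tables hold raw counts for 56633 features (55487 genes, 1146 repeat subfamilies). Symbols were matched for 55141 genes. Each comparison was fitted on the whole table with edgeR 4.0.16 (R 4.3.3; glmQLFit, glmQLFTest) on its own groups, with TMM normalization and filterByExpr (minimum count 10), and all p-values were adjusted by Benjamini-Hochberg. DE means an adjusted p under 0.01 and an absolute log2 fold change over 0.58. The step was checked on simulated counts. The members and lists were chosen with earlier results of these data known, and the comparison of 96 h with T0 was chosen after seeing the data. The tables were normalized separately, so levels are compared within an experiment only, except that the added comparison fits the counts of both tables normalized together and its levels are set side by side as values. The named genes are the 4 members, their relatives, list genes past the call and the 3 genes most like each member.

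Of 32 comparisons of 2 groups, same-numbered replicates deviated together in 3 (each pair's correlation over 0.1): at 96 h, dPOLE4 vs Ctrl (0.337, 0.167 and 0.171), dPOLE4 MCM2-2A vs Ctrl MCM2-2A (0.319, 0.323 and 0.122) and Ctrl MCM2-2A vs Ctrl (0.172, 0.193 and 0.108). Library totals of 7126100 to 46609151 counts set the precision. Alternatives were DESeq2 1.42.0 and its size factors, other filters, genes-only scaling, no fold change cutoff, all groups in 1 fit, scaling without chromosomes 11, 14 and 15, the replicate block and leaving out each replicate.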

Additional observations from a re-analysis of the deposited data

Results flagged for a closer look

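The rise of Sox4 from T24 to T60 differed between Ctrl MCM2-2A and Ctrl, by 0.36 on the log2 scale in a test of the difference (edgeR, adjusted p = 0.00207), a size under the fold change cutoff. Between the 96 h experiment and T0, the difference of Ctrl MCM2-2A from Ctrl changed by -0.94 for Otx2, by 0.97 for Pou3f1 and by 2.51 for Fgf5, each in a test of the difference itself that was chosen after the data were seen. Fgf5 rests on at most 84 counts in a library. The length of treatment and the experiment cannot be told apart.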

How the results depend on the processing

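Of the 155 values of the members, 45 were DE, and no value that was DE turned its direction under any alternative. DESeq2, its size factors in edgeR and genes-only scaling changed no call of a member. Scaling without chromosomes 11, 14 and 15, whose genes stayed in the test, changed none either. It was run only for Ctrl MCM2-2A and dPOLE4 MCM2-2A against Ctrl, 38 values of the members. Without the filter on low counts 8 calls were gained, and the members DE became 1 for dPOLE4 vs Ctrl at T0 and at 96 h, 1 for POLE4 loss in MCM2-2A at T60, 2 for the lines at T12, 1 for dPOLE4 from T12 to T24 and 1 (Pou3f1) for the difference of the POLE4 effect at T24. The other 2 were Fgf5 for dPOLE4 MCM2-2A vs Ctrl at T24 and for dPOLE4 from T24 to T60. With at least 10 counts in every library they became 0 for POLE4 loss in MCM2-2A at 96 h and 1 for dPOLE4 from T0 to T12, and with all groups in 1 fit 0 for the former and 2 for dPOLE4 MCM2-2A vs Ctrl at T60, beside the same 2 gains of Fgf5. Without the fold change cutoff 12 calls were gained, and they became 1 for POLE4 loss in MCM2-2A at T60, 3 for the lines at T12, 1 at T60, 1 for dPOLE4 MCM2-2A vs Ctrl at 96 h, 1 for dPOLE4 and 3 for Ctrl MCM2-2A from T12 to T24, and 2 for dPOLE4 MCM2-2A from T0 to T12. The other 3 were Sox4 for Ctrl and dPOLE4 from T0 to T12 and for dPOLE4 MCM2-2A from T12 to T24. Except for the fewer libraries, features or criteria that an alternative itself brings, the cause was not tested.

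The replicate block gained Pou3f1 for dPOLE4 vs Ctrl at 96 h (1 member DE), Fgf5 for POLE4 loss in MCM2-2A at 96 h (2), Otx2 for dPOLE4 from T12 to T24 (1) and Pou3f1 for the difference of the POLE4 effect at T24 (1), and lost Otx2 for POLE4 loss in MCM2-2A at T12 (0, adjusted p = 0.0141). It changed no other call. Outside the 3 comparisons at 96 h named with the processing, not every same-numbered pair had a correlation over 0.1. There, mean correlations of same-numbered libraries went from -0.0752 up to 0.193, the latter for POLE4 loss in MCM2-2A at T0. In 15 of all 32 comparisons every library correlated best with the one of its own number. Among them were that comparison and dPOLE4 from T12 to T24, a hint from the data and not from the design.

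With 1 library left out at a time, 36 of 45 calls were kept in every case, and 9 were lost in some, while 8 of 110 other values were gained in some. The members DE ranged from 0 to 1 for POLE4 loss in MCM2-2A at T0, T60 and 96 h and for dPOLE4 from T12 to T24, from 1 to 2 for POLE4 loss in MCM2-2A at T24, dPOLE4 MCM2-2A vs Ctrl at T0, Ctrl from T12 to T24 and Ctrl MCM2-2A from T0 to T12, and from 2 to 3 for Ctrl from T0 to T12 (Sox4 gained), from 3 to 4 for dPOLE4 from T24 to T60 (Fgf5 gained without dPOLE4 T24 replicate 2), and from 1 to 3 for the lines at T0 and T12, dPOLE4 from T0 to T12 and the difference of the lines between 96 h and T0. Fgf5 at 5 to 84 counts and Otx2 at T60 at 1 to 19 counts set the limit of depth.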
